A study of Drosophila melanogaster with 2 samples.

Results

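The Antennapedia complex is a cluster of homeobox genes on chromosome arm 3R of Drosophila melanogaster. Chromatin bound by a CG14965-eGFP fusion protein was examined across its 8 listed genes, lab, pb, zen, bcd, Dfd, Scr, ftz and Antp. The complex was taken as the 337802 bp from the end of lab to the start of Antp (dm6, chr3R:6661427-6999228), and its regions were selected on the deposited summit position alone. The locus itself was chosen with earlier results of these data known, so all values below are descriptions without a test. By this rule the complex held 7 of the 1302 optimal peaks, 91 of the 30000 pooled regions, 97 of 30000 regions of replicate 3 and 111 of 30000 regions of replicate 4.

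The series has 1 group of 2 biological replicates, numbered 3 and 4. Each came from embryos of both sexes, 0 to 24 h old, of a stable transgenic line in which GFP is joined to the C terminus of the CG14965 protein. Sonicated chromatin of 200 to 800 bp was precipitated with an antibody to GFP, and whole embryos were used, so the cells that carry each bound site cannot be told apart. All embryos carried the fusion. No untagged line was analysed here, the deposited lists give no read numbers, and the depth of each replicate is unknown. The optimal peaks bear the name of the irreproducible discovery rate (IDR) procedure, which sets a threshold on how well ranks repeat between lists of regions. They are the 1302 highest regions of the pooled list, and 49 of them overlap none of the 1302 highest of either replicate. The signal value of a region is the authors' own score, has no stated scale and is compared only within a list, whereas ranks are given across the 3 lists of 30000.

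Hox genes encode homeodomain transcription factors that give body segments their identity, and in the fly they lie in the Antennapedia and Bithorax complexes. In the Antennapedia complex lab, pb, Dfd, Scr and Antp are Hox genes of the head and thorax. The genes zen, bcd and ftz are relatives that act in the early embryo: zen in dorsal tissue, bcd in the anterior axis and ftz in segmentation. Genes of Hox complexes are controlled by enhancers that can lie far from their promoters, and insulator elements separate neighbouring regulatory domains. Insulators named SF1 and SF2 have been described on either side of ftz, but the sources used here give no positions for them, so they were not placed against the regions below.

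The 101 bases centred on the summit are shown for the 4 strongest peaks of the complex, because nearly all of its high signal lies there. The peak upstream of bcd is shown as the one optimal peak at a promoter of the listed genes. A weaker region in an Antp intron is shown because it holds the one CTCF word near a summit. All are dm6, plus strand, with capitals at any match to a searched motif on either strand. The sequences were read from the Release 6 assembly.

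Antp intron, rank 32, chr3R:6973366-6973466: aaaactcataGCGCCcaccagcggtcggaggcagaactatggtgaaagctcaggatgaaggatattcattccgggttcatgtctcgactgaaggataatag
Scr to ftz, rank 42, chr3R:6854485-6854585: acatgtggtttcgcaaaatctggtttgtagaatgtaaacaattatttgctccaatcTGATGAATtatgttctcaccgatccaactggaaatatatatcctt
ftz to Antp, rank 50, chr3R:6870896-6870996: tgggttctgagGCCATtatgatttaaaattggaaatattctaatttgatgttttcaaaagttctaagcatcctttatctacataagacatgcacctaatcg
Antp intron, rank 71, chr3R:6970692-6970792: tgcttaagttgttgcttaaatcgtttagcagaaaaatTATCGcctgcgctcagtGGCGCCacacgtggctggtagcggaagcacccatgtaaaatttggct
bcd promoter, rank 1271, chr3R:6759557-6759657: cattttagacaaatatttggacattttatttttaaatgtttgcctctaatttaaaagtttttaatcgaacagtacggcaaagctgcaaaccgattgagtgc
Antp intron, rank 1566, chr3R:6912268-6912368: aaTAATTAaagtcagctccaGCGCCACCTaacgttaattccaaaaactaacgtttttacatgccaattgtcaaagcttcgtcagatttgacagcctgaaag

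The complex had 4 regions among the 100 highest of the pooled list, which was called on both replicates. The matching regions of each replicate, which are not independent of that list, were also among the 100 highest of that replicate. The 4 lay upstream of Scr, between ftz and Antp, and at 2 nearby sites within the Antp gene. Their pooled signal values ran from 448 to 1131, with pooled ranks of 32, 42, 50 and 71. The other 3 optimal peaks of the complex had signal values from 70.8 to 74.8 and ranks from 1142 to 1271, close to the last optimal peak of all (69.8). The member just inside the threshold was the bcd promoter peak (rank 1271), and the member just outside was a region in a lab intron (signal 65.5, rank 1458). The map of the 3 lists along the complex shows the 4 tall sites in each, and low regions over most of the rest. The nearest optimal peaks outside the complex lay 237347 bp beyond its lab end and 76588 bp beyond its Antp end.

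**Figure D1:**
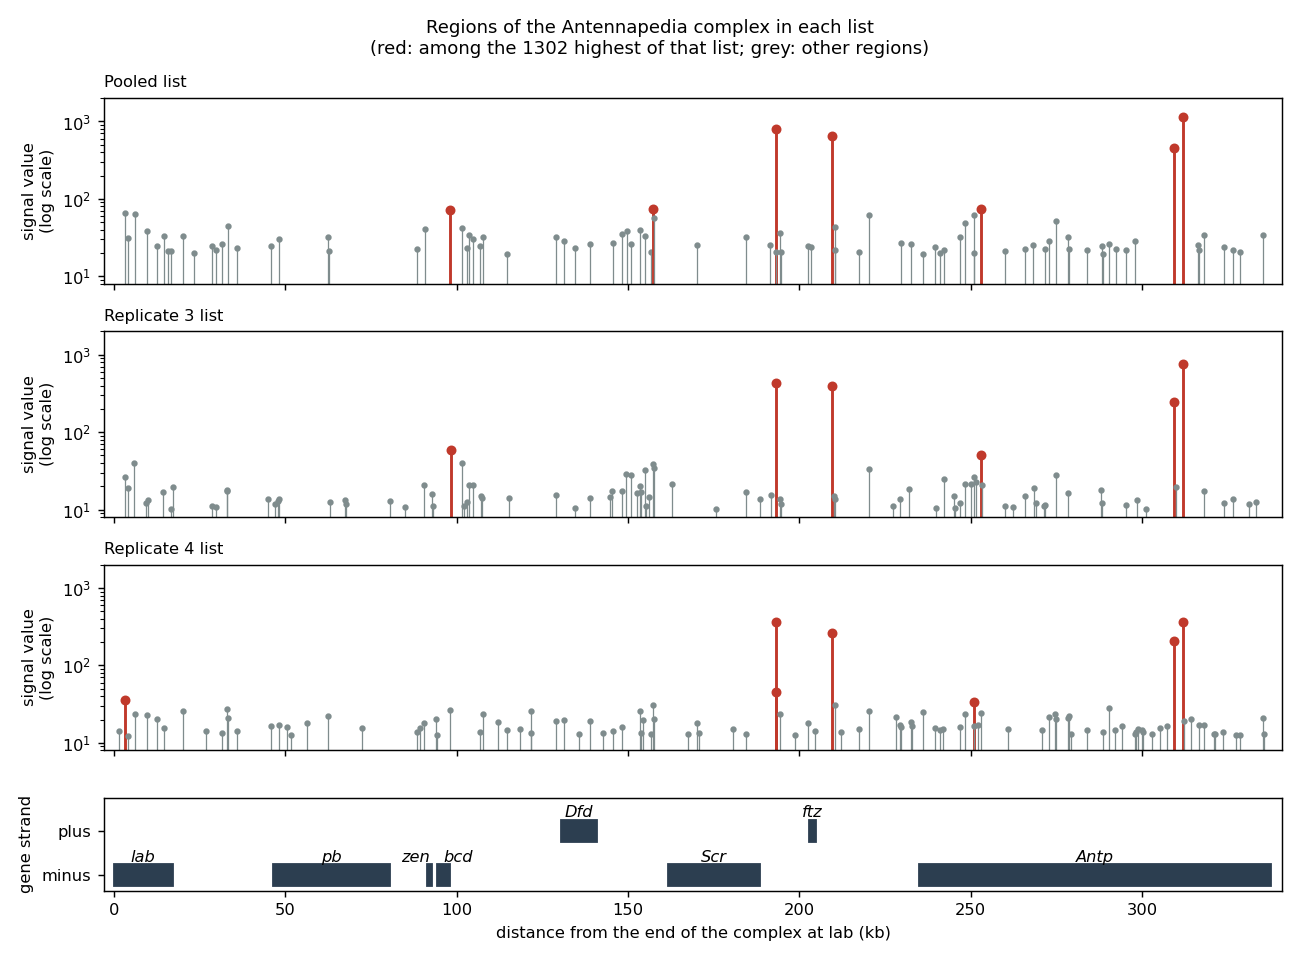
Signal value (log scale) of each region of the complex in the pooled, replicate 3 and replicate 4 lists against distance in kb from the lab end, with the 8 genes by strand in the lowest panel. Red marks regions among the 1302 highest of a list: 7 in the pooled list, 6 in replicate 3 and 7 in replicate 4.

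The strongest peak lay in an intron of Antp, the Hox gene of the thorax, at chr3R:6973186-6973645. Its signal value was 1131 in the pooled list (rank 32), 764 in replicate 3 (rank 30) and 364 in replicate 4 (rank 40). Both replicates thus placed it among their 100 highest regions, and their summits lay 4 bp and 1 bp from the pooled summit. The summit was 15.0 kb from the nearest annotated Antp transcription start site (TSS). A neighbouring peak in the same gene, at chr3R:6970595-6970889, lay 2.67 kb away on the side of the 3′ end of Antp. Its signal value was 448 in the pooled list (rank 71), 246 in replicate 3 (rank 73) and 205 in replicate 4 (rank 68). No pooled region had its summit between these peaks, nor was there one in replicate 4, and replicate 3 had 1.

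The 2 other strong peaks flanked ftz, a pair-rule segmentation gene, one on each side. The peak in the stretch between Scr and ftz, at chr3R:6854311-6854759, was 4.55 kb upstream of Scr, the Hox gene of the labial and first thoracic segments, and 9.79 kb from ftz. Its signal value was 799 in the pooled list (rank 42), 433 in replicate 3 (rank 46) and 365 in replicate 4 (rank 39). This made it the highest region of the complex in replicate 4, just above the Antp peak of rank 40 there, whereas replicate 3 and the pooled list put the Antp peak first. The order of these 2 sites therefore differed between the replicates.

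The peak on the far side of ftz, at chr3R:6870775-6871153, lay 4.70 kb beyond the 3′ end of ftz and 25.3 kb from the Antp gene. Its signal value was 650 in the pooled list (rank 50), 394 in replicate 3 (rank 49) and 259 in replicate 4 (rank 52). The summits flanking ftz were 16.4 kb apart. More than 500 bp from both summits, the interval between them, which holds all of ftz, had 4 pooled regions, of which the highest ranked 5798 (signal 36.5). The highest there ranked 16809 in replicate 3 and 4095 in replicate 4.

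The weaker optimal peaks repeated to different degrees. The bcd peak, at chr3R:6759389-6759824, had its summit 141 bp upstream of the TSS of bcd, whose product is the anterior morphogen. Its signal value was 70.8 in the pooled list, 58.0 in replicate 3 (rank 732) and 26.8 in replicate 4 (rank 2468). Replicate 3 alone put it among its 1302 highest regions, and the summits of the replicate regions lay 79 and 106 bp from the pooled summit. The weakest of the optimal peaks in Antp, at chr3R:6914371-6914806, had a signal value of 74.8 in the pooled list (rank 1142), 50.3 in replicate 3 (rank 945) and 24.1 in replicate 4 (rank 3776). Its replicate summits lay 11 and 28 bp from the pooled summit. It lay in an intron that CG46458, an overlapping gene, shares. The peak between Dfd and Scr, at chr3R:6818632-6819067, had a signal value of 73.4 in the pooled list (rank 1180), 38.3 in replicate 3 (rank 1597) and 30.8 in replicate 4 (rank 1558). The replicates placed it alike, with summits 4 and 9 bp from the pooled one, though neither put it among its 1302 highest. The nearest TSS, 1044 bp away, was that of the lysine transfer RNA gene tRNA:Lys-TTT-2-1.

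**Figure D2:**
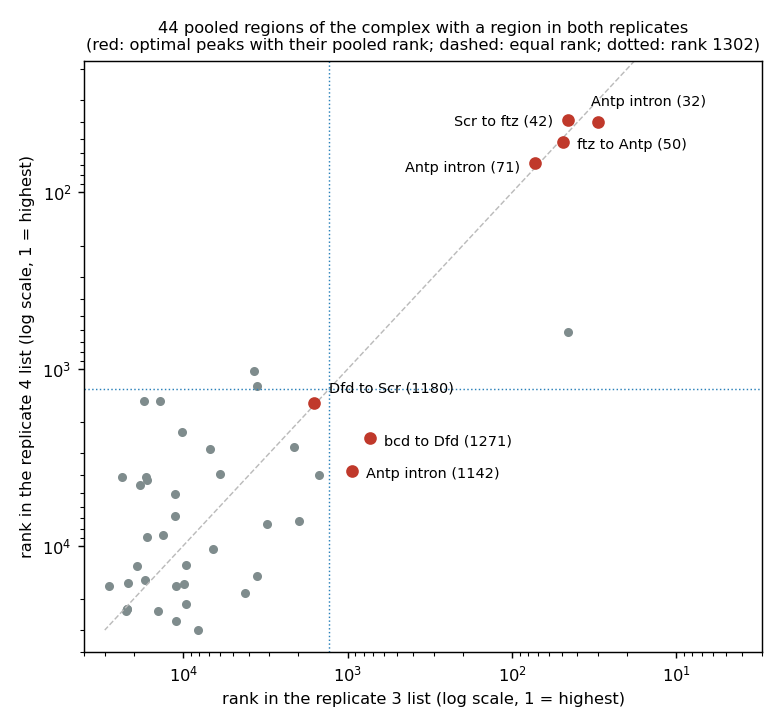
Rank in replicate 4 against rank in replicate 3 (log scales, 1 is the highest) for the 44 pooled regions of the complex that overlap a region in both replicates. The 4 strong peaks lie near the line of equal rank, at 30 to 73 in replicate 3 and 39 to 68 in replicate 4, and the other optimal peaks lie at 732 to 1597 and 1558 to 3776, while the grey point at 46 and 614 is another entry at the Scr to ftz peak.

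Optimal peaks made up 7 of 91 pooled regions of the complex (7.69%, 95% Wilson interval 3.78 to 15.0%), beside 4.34% of all 30000 pooled regions, a share within that interval. Among the 100 highest pooled regions, which are 0.333% of that list, 4 lay in the complex (4.40% of its 91 regions, 1.72 to 10.8%). The complex held 6 of the 1302 highest regions of replicate 3 (6.19% of 97) and 7 of those of replicate 4 (6.31% of 111), and 4.34% of each replicate's regions are among its 1302 highest. The intervals count regions, which are not replicates, and some of these regions overlap each other. The locus was chosen with earlier results known, so no interval here tests the complex against a background share. Per 100 kb there were 2.07 optimal peaks in the complex, 0.923 over arm 3R and 0.973 over all chromosome arms. For pooled regions the numbers per 100 kb were 26.9, 22.9 and 22.4. The Bithorax complex, from Abd-B to Ubx, had 4 optimal peaks (1.27 per 100 kb) and 81 pooled regions, and 2 of its peaks were among the 100 highest, against 4 here. The highest signal there was 8276, the top of the whole pooled list, against 1131 here. Of the 7 in replicate 4, 4 were the strong sites and 1 (rank 614) was an overlapping entry beside the Scr to ftz peak, while the other two were regions below the optimal threshold, in lab (rank 1022) and in Antp (rank 1247). These counts were not tested.

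**Figure D3:**
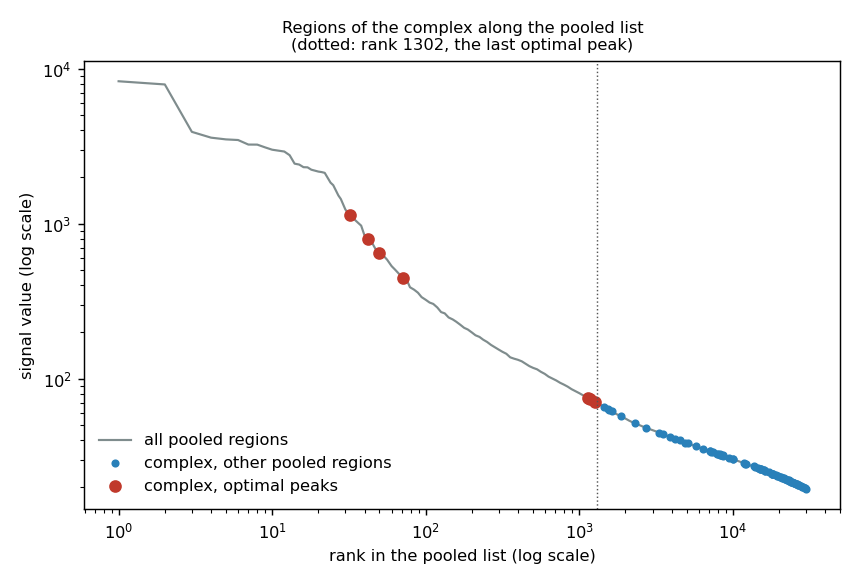
Signal value against rank in the pooled list (both log scales) for all 30000 regions (grey line) and for the 91 regions of the complex (points; optimal peaks in red). The complex has 4 points at ranks 32 to 71 and its next point at rank 1142.

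Apart from the strong peaks, the regions of the complex were spread over the ranks of the lists. The median signal value of its 91 pooled regions was 26.1, against 26.2 for all pooled regions. The median rank of its regions was 15105 in the pooled list, 14299 in replicate 3 and 14849 in replicate 4, close to the middle of each list (15000.5). A region in both replicates overlapped 44 of the 91 (48.4%), against 41.6% of all pooled regions. In the complex 3 (3.30%) overlapped a region in neither replicate, against 6.11% of all pooled regions. Spearman's rho of the signal between replicates was 0.577 across these 44 regions, against 0.380 across all 12488 such pooled regions. Without regions above pooled rank 100 it was 0.438 across the 40 that remain in the complex. No such value was made for all pooled regions. The 40 still hold the entry of rank 27124, matched to the strong Scr to ftz region of replicate 3 (rank 46). The points share the libraries, some share a replicate region, and they are not replicates. Widths were mostly a constant of each list, 436 bp for 86 of the 91 regions. The other 5 included the 4 strong peaks (295 to 460 bp), and 99 of the 100 highest pooled regions likewise had another width. The remaining one, at rank 27124, repeats the start and end of the Scr to ftz peak with another summit, so the deposited list holds that place more than once.

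Ordered by the highest pooled region in the gene body or within 500 bp of a TSS, the 8 genes ran Antp (rank 32), bcd (1271), lab (1458), pb (8223), Scr (8392), Dfd (12068) and ftz (17148), and zen had no pooled region. This order takes no account of gene length: Antp had 33 such regions and bcd 1. It also leaves out the peak of rank 42, which lay 4.55 kb upstream of Scr. Antp was first in both replicates, at rank 30 in replicate 3 and 40 in replicate 4. The order of bcd and lab turned: bcd ranked 732 and lab 1489 in replicate 3, but bcd ranked 2468 and lab 1022 in replicate 4. The order of pb and Scr turned too, at 17228 and 6102 in replicate 3 and at 5130 and 11323 in replicate 4. Scr and Dfd, the next neighbours, also turned. None of these 3 pairs was therefore separated beyond the spread of the replicates. For lab, pb, Scr and Dfd the highest region lay at a different site in each replicate, so these ranks do not compare the same site. For Dfd, the Hox gene of maxillary and mandibular segments, the highest region ranked 16644 in replicate 3 and 8341 in replicate 4. For ftz it ranked 11217 in replicate 4, with no region in replicate 3, and for zen, a gene of dorsal embryonic tissue, 12173 in replicate 3 with none in replicate 4.

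Antp covers 103 kb and held 33 pooled regions (3.20 per 10 kb), 33 in replicate 3 and 44 in replicate 4. By this measure lab, a Hox gene of the head and midgut, was denser in the pooled list, with 8 regions in 17.2 kb (4.66 per 10 kb), and in replicate 3, with 7 (4.08 against 3.20). In replicate 4 it was not, with 7 regions (4.08 per 10 kb) against 4.27 per 10 kb in Antp. Its highest were intronic, at chr3R:6664387-6664822 (signal 65.5, rank 1458; rank 3705 in replicate 3 and 1022 in replicate 4) and chr3R:6667260-6667695 (63.3, rank 1541; 1489 and 3958). The replicates ordered these 2 sites of lab in opposite ways. The sparsest genes with a pooled summit in the gene body were Scr, with 2 pooled regions in 26.9 kb (0.745 per 10 kb), and pb, a Hox gene of the mouthparts, with 3 in 34.3 kb (0.876 per 10 kb). Among genes with a summit in replicate 3, Scr was again the sparsest (1.12 per 10 kb), but pb (2.04) was above Dfd (1.89). In replicate 4 the same genes, pb (1.75) and Scr (1.86), were again the sparsest, in turned order, with Dfd next (2.83). The widest gap between neighbouring pooled summits, 25.8 kb, ran from pb into the stretch between pb and zen, against a median gap of 2.55 kb. Both replicate lists had summits inside this gap, so it is empty in the pooled list only. Gene bodies cover 58.8% of the complex and held 50 pooled regions (54.9%).

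**Figure D4:**
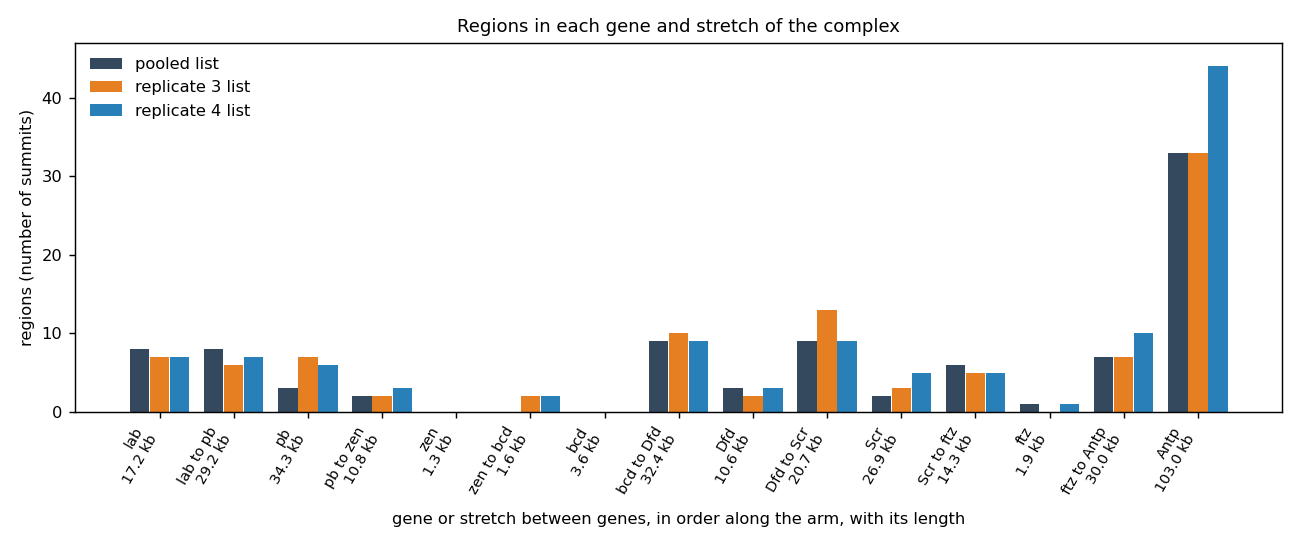
Number of region summits in each gene and each stretch between genes, in order along the arm, in the pooled, replicate 3 and replicate 4 lists, with the length of each in kb. Antp, the longest at 103 kb, held 33, 33 and 44 regions, and no list had a summit within zen or bcd.

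At the promoters, a pooled region was found for 3 of the 8 listed genes (37.5%, 95% Wilson interval 13.7 to 69.4%), near the 42.5% of all protein-coding genes. Of their 12 annotated TSSs, 3 had a pooled region within 500 bp and 1, that of bcd, an optimal peak. Beside the bcd peak, the highest such region ranked 17148 at ftz (signal 24.8) and 21847 at Antp (22.5). By gene, 1 of 8 had an optimal promoter peak, against 4.90% of 13945 protein-coding genes, a share from which 8 genes cannot be separated (12.5%, 95% Wilson interval 2.24 to 47.1%). Among 25 related genes, a list also made with earlier results known, none had an optimal promoter peak, which allows a share of up to 12.0%, and 12 had a pooled region there (48.0%, against the same 42.5% of all protein-coding genes). These were the Hox genes Ubx, abd-A and Abd-B of the Bithorax complex, 6 Hox cofactors and partners (exd and hth among them), 7 head and segmentation genes (cnc and cad among them), zen2 and Ama, and 7 cuticle genes of the Ccp84A group within the complex. The highest of their promoter regions were at cnc, a head selector gene (signal 59.6, rank 1710), Ama, which encodes an immunoglobulin-domain protein (42.0, rank 3916), and tsh, a trunk selector gene (39.2, rank 4723). In the gene bodies, hth and cad held 1 optimal peak each. The share of all genes with such a peak is not given here, and gene length was not taken into account. The Ama region ranked 1428 in replicate 3 and had no counterpart in replicate 4.

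Of the pooled regions of the complex, 13 (14.3%) lay within 500 bp of any TSS, against 24.7% of all pooled regions. The stretch from ftz to Antp also held the highest intronic region of a noncoding gene, in lncRNA:CR44931 (signal 61.4, rank 1624; rank 2120 in replicate 3 and 2772 in replicate 4). Introns held 48 (52.7% against 34.5%), sequence between genes 21 (23.1% against 16.6%) and coding sequence 5 (5.49% against 19.3%). The promoter share was 19.6% in replicate 3 and 6.31% in replicate 4, and over all regions it was 29.1% and 19.3%. The replicates differed in the same direction across the genome. Of the 7 optimal peaks of the complex, 1 lay within 500 bp of a TSS (14.3%), 3 in introns (42.9%) and 3 between genes (42.9%). Over all 1302 optimal peaks these shares were 45.1%, 36.1% and 15.0%. The 7 peaks are too few to set against them. The microRNA gene mir-10, between Dfd and Scr, was overlapped by a pooled region of rank 6380 (signal 35.3; rank 9952 in replicate 3 and 16388 in replicate 4). The region at mir-993, between bcd and Dfd, ranked 29887 and had no counterpart in replicate 3.

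None of the 7 optimal peaks held the CTCF word, the recognition element of an insulator protein, within 50 bp of its summit or anywhere in its region. Only exact matches were counted, and 7 peaks are too few to set against the shares given below. Of the 100 highest pooled regions 4 lay in the complex, and 0 of these 4 held the word near the summit. The regions of ranks 32, 42 and 1271 held the word with 1 mismatch, which was not set against other peaks. The word was searched on both strands as AGATGGCGC, AGAGGGCGC, AGGTGGCGC and AGGGGGCGC, and 77 of all 1302 optimal peaks (5.91%) and 31 of the 100 highest pooled regions hold one near the summit. The core letters GGCGC alone, searched after the sequences had been seen, lay near 2 summits, both of the strong peaks in Antp, against 14.0% of all optimal peaks and 42 of the 100 highest pooled regions. They lie in the sequences of rank 32 and rank 71 above, 38 bp and 6 to 7 bp from the summits. Across the complex the word occurred 11 times, 4 of them within a pooled region and 0 in an optimal peak. The chromosome arms hold it 2929 times, with 20.0% in a pooled region and 4.27% in an optimal peak. The Antp intron region at rank 1566 (signal 62.8; rank 3578 in replicate 3 and 1247 in replicate 4) held a pair of these words, one of them 26 bp from the summit and in capitals above.

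The other motifs searched were each near 0 to 2 of the 7 summits, too few to set against the shares of all optimal peaks. A GAGA factor site, GAGAG, lay near 2 of them (ranks 1142 and 1180; 12.2% of all optimal peaks and 13.0% of pooled regions hold one). The Pho site GCCAT lay near 1 (rank 50; 19.4% of optimal peaks), the joint Exd and Hox word TGATNNAT near 1 (rank 42; 5.76%) and the BEAF word CGATA near 1 (rank 71; 13.5%). The Zelda word CAGGTAG and the homeodomain word TAATTA were near none (0.461% and 6.84% of optimal peaks). TAATTA reads the same on both strands, and GGCGC lies within every CTCF word. The strong peaks flanking ftz had a GC content of 33.7% and 31.7% in the 101 bases, and those in Antp 48.5% and 47.5%, around a median of 36.6% for all optimal peaks. No word of 8 letters was shared by more than 2 of the 7 summit sequences.

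Optimal peaks outside the complex were set beside the Antp peak of rank 32 by the summed difference of ranks in all 3 lists. The 3 nearest were close in pooled signal by this choice, since the signal value sets the rank. They lay in the 3′ UTR of msi or of the overlapping ymp at chr3R:25591478-25592020 (rank 33, summed difference 4), between genes 13093 bp from lncRNA:cherub at chr3R:11269034-11269399 (rank 31, difference 12) and in the 3′ UTR of CG9500 at chr2L:6356981-6357390 (rank 30, difference 13).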

How the data were processed

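Per the deposited file lists, the authors called regions on dm6 for each replicate and for both replicates pooled, and the optimal list bears the name of the irreproducible discovery rate. The labels name a control library, not analysed here. The aligner and the caller, with their versions, were not given in the sources used here. The deposited score in column 7 is the signal value; its scale is not stated. The deposited −log10 significance in column 9 broke ties in rank only. Summits were column 2 plus the deposited offset in column 10, printed counting from 1. The dm3 lists were not used here.

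Genes and TSSs came from Ensembl release 115, without transposons, and sequence from the Release 6 assembly. Coordinates of all 8 genes were the same in RefSeq. A region was matched across lists by an overlap of at least 1 bp, taking the nearest summit. Motifs were searched 50 bp either side of each summit. Scripts used Python 3.11.15 and scipy 1.17.1, and placement, overlap and motif search were tested on simulated data. The members, gene lists and motifs were chosen with earlier results of these data known. Named genes were the 8 listed, the genes nearest to or holding optimal peaks or regions of that rank, and the 3 nearest in rank; other named genes were chosen after their values were seen. Alternatives covered the threshold, each replicate alone, overlap, windows and merging. Replicates come from separate biosamples, and no test was made between them.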

Additional observations from a re-analysis of the deposited data

How the results depend on the processing

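No paired analysis was possible because both replicates belong to the same group and no 2 groups are compared. With each replicate alone, the complex held 6 to 7 of the 1302 highest regions, against 7 optimal peaks. These regions were not all at the same sites. Of the 7 optimal peaks, 2 overlapped such a region in replicate 3 only, 0 in replicate 4 only and 1 in neither. In the 651 highest peaks of the optimal list the complex held 4, the strong peaks beside ftz and in Antp. Optimal peaks shared by the 1302 highest regions of both replicates numbered 4 of 7 (57.1%), and 7 when any region of each replicate counted. Over all 1302 optimal peaks these shares were 64.1% and 99.3%. Pooled regions within 500 bp of a TSS numbered 13, with 5 for a 250 bp window and 20 for a 1000 bp window. The CTCF word was near 0 of 7 optimal summits in every window searched, and the core letters alone, chosen after seeing the data, were near 2. Merging overlapping entries left 82 of 91 pooled regions, 82 of 97 in replicate 3 and 95 of 111 in replicate 4. Ranks are known only within 30000 regions a list, and the depth behind them is unknown.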
